A study of Mus musculus with 35 samples.

Results

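The regions described are 10 kb bins of mouse autosomes that carried both H3K27me3 and H3K36me3 in c13 oocyte-like cells and kept H3K27me3 without H3K36me3 in c34 oocyte-like cells. They were chosen by these measured peak lists. A bin, counted from position 0 on autosomes 1 to 19, was a member when it lay in the c13 lists of both marks, in the c34 H3K27me3 list and not in the c34 H3K36me3 list. There were 34825 member bins, or 348 Mb. They made up 14.2% of the 246081 autosomal bins and 44.4% of the 78523 bins that carried both marks in c13. The rest of those double-marked bins had H3K36me3 only in c34 (24912 bins, 31.7%), both marks (14070 bins, 17.9%) or neither (4716 bins, 6.01%). Because the rule used the c13 and c34 lists of these marks, their coverage at those stages is a description of the choice and not a result.

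The study measured histone marks by CATCH-seq. This is chromatin immunoprecipitation without cross-linking, suited to few cells, that uses micrococcal nuclease and carrier DNA. It followed the culture of oocytes from mouse embryonic stem cells without ovarian somatic cells. Cultured stages were the d4c7 oogonia-like cells and the d4c13 and d4c34 oocyte-like cells (here c7, c13 and c34), all from 1 cell line, H18 with the Prdm1-mVenus and Dppa3-ECFP reporters. The in vivo stages were oocytes at E18.5, which carried these 2 reporters, and fully grown germinal-vesicle (GV) oocytes of BDF1. All groups are labelled wild type. Stage, culture and genetic background therefore change together between c34 and GV and cannot be told apart. The 13 deposited peak lists gave 1 list for each stage and mark, with c7 represented by H3K27me3 alone, against 35 labelled libraries. Most lists had 2 libraries behind their label, GV H3K27me3 and GV H3K4me3 had 1 each, and c13 H3K4me3 had 4. Read depth was not in the lists, and with 1 list per stage no difference could be set against a spread between replicates. Ranges over the 19 autosomes are given in place of that spread. They show variation along the genome only, and no p-value was computed.

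H3K27me3 is written by Polycomb repressive complex 2 and marks silent developmental genes, and in growing oocytes it also spreads over wide intergenic domains. H3K36me3 is written behind elongating RNA polymerase and, in oocytes, is the mark over which DNA methylation is laid down. H3K4me3 marks active or poised starts, and in late growing oocytes it also forms broad domains away from starts. The 3 marks have antagonistic links, since H3K36 methylation hinders Polycomb repressive complex 2 and H3K4 methylation hinders de novo DNA methylation.

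The promoters of 4 member genes are shown because they bracket the range of CG content, which separated the members by H3K4me3. They are the 2 with the most and the 2 with the fewest CG dinucleotides among member genes of the gene lists used here. Sequences are from RefSeq on GRCm38.p6, run from 250 bases before to 50 after the start site, and are written 5′ to 3′ on the gene's strand, with each CG in capitals. Wnt4, a Wnt ligand of the supporting cells of the ovary, has its promoter at chr4:137277385-137277684 on the plus strand. Kcnmb4, a regulatory subunit of calcium-activated potassium channels, has its promoter at chr10:116473474-116473773 on the minus strand. Clec4f, a lectin of liver macrophages, has its promoter at chr6:83656067-83656366 on the minus strand. Defb22, a beta-defensin of the epididymis, has its promoter at chr2:152490089-152490388 on the minus strand.
Wnt4: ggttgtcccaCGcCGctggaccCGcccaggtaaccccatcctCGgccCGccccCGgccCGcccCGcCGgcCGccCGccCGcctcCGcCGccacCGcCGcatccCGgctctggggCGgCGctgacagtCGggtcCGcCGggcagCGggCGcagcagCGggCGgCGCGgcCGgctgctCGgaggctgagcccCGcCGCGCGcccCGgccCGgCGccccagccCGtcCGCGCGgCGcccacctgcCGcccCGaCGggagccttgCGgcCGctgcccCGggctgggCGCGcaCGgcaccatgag
Kcnmb4: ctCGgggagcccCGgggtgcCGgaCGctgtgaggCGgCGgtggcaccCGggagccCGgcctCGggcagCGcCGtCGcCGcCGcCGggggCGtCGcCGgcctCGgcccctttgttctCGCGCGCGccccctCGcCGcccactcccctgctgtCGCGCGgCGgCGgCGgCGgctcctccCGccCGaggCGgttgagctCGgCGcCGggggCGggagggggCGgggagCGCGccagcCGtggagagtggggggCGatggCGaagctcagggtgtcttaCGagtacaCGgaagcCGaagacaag
Clec4f: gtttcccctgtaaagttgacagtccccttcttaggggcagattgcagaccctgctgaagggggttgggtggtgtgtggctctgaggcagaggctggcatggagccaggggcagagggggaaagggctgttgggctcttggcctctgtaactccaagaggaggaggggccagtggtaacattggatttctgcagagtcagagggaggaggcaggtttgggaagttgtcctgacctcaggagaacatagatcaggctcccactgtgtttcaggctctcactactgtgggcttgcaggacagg
Defb22: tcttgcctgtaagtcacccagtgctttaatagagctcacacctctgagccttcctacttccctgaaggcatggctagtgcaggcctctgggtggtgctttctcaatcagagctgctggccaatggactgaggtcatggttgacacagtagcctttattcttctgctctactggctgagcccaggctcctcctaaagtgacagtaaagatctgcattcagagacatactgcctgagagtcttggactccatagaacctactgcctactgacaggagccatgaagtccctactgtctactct

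The Wnt4 promoter held 51 CG in 300 bases and the Kcnmb4 promoter 48, while those of Clec4f and Defb22 held 0. All 4 lay in member bins, so all had H3K27me3 in c13 and c34 by the rule. The Wnt4 and Kcnmb4 starts had H3K4me3 within 1 kb at c13, c34, E18.5 and GV. The Clec4f start had none at any of the 4 stages, and the Defb22 start had it in GV alone. At both in vivo stages H3K27me3 covered the starts of Wnt4, Clec4f and Defb22 but not that of Kcnmb4.

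In GV oocytes most of the member regions carried H3K27me3 and few carried H3K36me3. H3K27me3 covered 69.1% of member bins, against 28.3% of all autosomal bins, 1.76% of the double-marked bins that had become H3K36me3 only, 48.1% of those with both marks in c34 and 5.51% of those with neither. The member share was the highest of these 4 sets on 19 of 19 autosomes, and it ranged from 49.6% on chromosome 1 to 80.4% on chromosome 7. H3K36me3 covered 13.1% of member bins in GV oocytes, with a range of 7.08% to 19.6% over the autosomes. The same mark covered 38.5% of all autosomal bins, 92.8% of the bins that were H3K36me3 only in c34 and 75.7% of those with both marks. On 19 of 19 autosomes the member share of GV H3K36me3 was below both of these sets.

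Splitting the bins by mark combination, 21722 members (62.4%) had H3K27me3 only in GV oocytes, 2345 (6.73%) had both marks, 2220 (6.37%) had H3K36me3 only and 8538 (24.5%) had neither. The state that defined the members in c34 was also the commonest in GV oocytes, followed by neither mark. The members were compared with the other bins that were H3K27me3 only in c34, a split chosen after the values had been seen. GV H3K27me3 covered 58.8% of the 14929 such bins that had H3K27me3 only in c13, 59.7% of the 4541 with H3K36me3 only in c13 and 58.1% of the 16660 with neither. GV H3K36me3 covered 11.4%, 13.2% and 9.21% of these sets. The members, at 69.1%, were above these 3 sets in GV H3K27me3, but the direction turned without c13 peaks of 1 Mb or more. Members then had 54.8%, and the 3 sets, chosen by the same narrower lists, had 63.4%, 55.3% and 65.5%.

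In E18.5 oocytes the members were already rich in H3K27me3. That mark covered 67.9% of member bins at E18.5, ranging from 47.5% on chromosome 1 to 87.3% on chromosome 8, against 39.7% of all autosomal bins. The 3 other fates had 36.4% (H3K36me3 only in c34), 58.0% (both marks) and 52.9% (neither). The member share was above the H3K36me3-only and both-mark sets on 19 of 19 autosomes and above the neither set on 18. The other c34 H3K27me3-only bins had 62.6% (H3K27me3 only in c13), 52.9% (H3K36me3 only in c13) and 60.1% (neither in c13). Without c13 peaks of 1 Mb or more, members had 59.7% and these sets 63.1%, 59.4% and 65.3%, so members no longer stood above all of them. By combination, 52.9% of members had H3K27me3 only at E18.5, 15% had both marks, 4.84% had H3K36me3 only and 27.3% had neither. Both marks at E18.5 were thus found in 5212 of the member bins, from 0.533% to 64.4% of members by autosome. They were found in 11.0% of all autosomal bins, 12.1% of all c13 double-marked bins and 19.6% of those with neither mark in c34. The member share was therefore near that of these sets.

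The share of E18.5 H3K36me3 in the members depended on the width of the c13 peaks. With all peaks the mark covered 19.8% of member bins and 23.8% of all autosomal bins, and 20.0% of the bins that became H3K36me3 only. Members lay above all bins on 6 autosomes and below on 13. Without c13 peaks of 1 Mb or more the direction turned, with 42.3% of the 3852 bins covered. The other fates then had 52.5% (H3K36me3 only), 29.5% (both marks) and 56.5% (neither). The member share differed more between chromosomes than between fates: it was 0.738% on chromosome 7, 77.6% on chromosome 14 and 51.4% on chromosome 13, where all bins had 13.8%, 46.6% and 47.5%. It was under 5% on 4 autosomes and at or above 40% on 4.

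Within the members, H3K27me3 only was the commonest GV state whatever the state at E18.5. Of the 18438 members with H3K27me3 only at E18.5, 66.1% had H3K27me3 only in GV oocytes. Of the 9490 with neither mark at E18.5, 60.5% did, as did 55.2% of the 5212 with both marks and 54.6% of the 1685 with H3K36me3 only. The both-mark and H3K36me3-only bins more often had neither mark in GV oocytes (30.9% and 30.6%) than the H3K27me3-only bins (21.5%).

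H3K27me3 was also present early in culture. It covered 66.8% of member bins in c7, against 35.1% of all autosomal bins and 44.0% of the bins that became H3K36me3 only. Members and the bins that kept both marks (67.9%) had similar shares, with members higher on 10 autosomes and lower on 9. The autosomal range was wide, from 36.6% on chromosome 3 to 89.0% on chromosome 19. Members with H3K27me3 in c7 had it at E18.5 in 78.8% of 23278 bins and in GV oocytes in 71.6%. Members without it in c7 (11547 bins) had it in 46.0% and 64.0%. The rule fixed H3K27me3 at c13 and c34, so over the 5 stages only c7, E18.5 and GV could vary. With c13 and c34 counted, 38.1% of members had the mark at all 5 stages, 34.1% at 4, 21.5% at 3 and 6.36% at c13 and c34 alone. The count was made for members only.

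**Figure D1:**
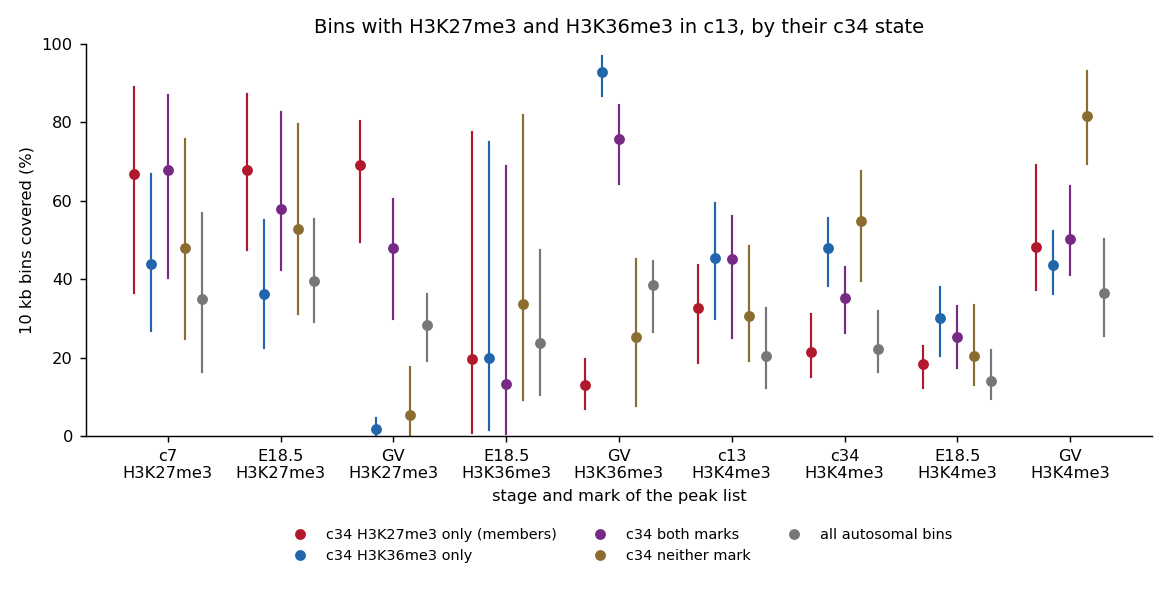
Share of 10 kb bins covered by each peak list (y axis, %) for the bins double-marked in c13, coloured by their c34 state, and for all autosomal bins in grey; points give the genome-wide share and lines the lowest to the highest of the 19 autosomes. Members are high in H3K27me3 at c7, E18.5 and GV (66.8%, 67.9% and 69.1%) and low in GV H3K36me3 (13.1%), and the E18.5 H3K36me3 lines are long for every set that was double-marked.

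**Figure D2:**
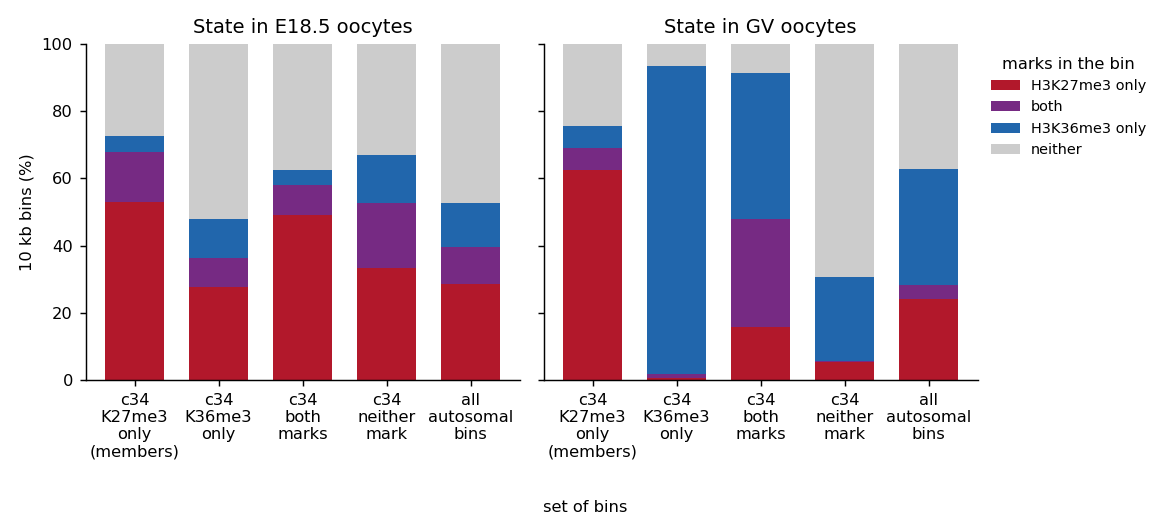
Combination of H3K27me3 and H3K36me3 in E18.5 and GV oocytes (stacked shares of 10 kb bins, y axis, %) for each c34 fate of the c13 double-marked bins and for all autosomal bins. H3K27me3 only is the largest block of the members at both stages, 52.9% at E18.5 and 62.4% in GV oocytes.

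H3K4me3 lay in fewer members in c34 than in c13 and was widest in GV oocytes. A bin was counted when it held at least 1 kb of H3K4me3 peak. In c13, 32.6% of members held H3K4me3, against 20.6% of all autosomal bins, 45.5% of the bins that became H3K36me3 only and 45.2% of those that kept both marks. In c34 the member share was 21.4%, close to the 22.3% of all bins, while the other 3 fates had 47.9%, 35.3% and 55.0%. Members were below each of those 3 fates on 19 of 19 autosomes in c34. Those fates had another c34 state, and the members were above the other c34 H3K27me3-only bins. In c34, 2692 of 14929 such bins with H3K27me3 only in c13 held H3K4me3. It was held by 647 of 4541 with H3K36me3 only in c13 and 1160 of 16660 with neither. All c34 H3K27me3-only bins, members included, had 16.9%. Without c13 peaks of 1 Mb or more, 21.1% of the 3852 bins that met the rule held H3K4me3 in c13 and 20.9% in c34. The difference between these stages was thus nearly absent there. In c34 the other H3K27me3-only sets then had 22.4% (H3K27me3 only in c13), 13.3% (H3K36me3 only) and 12.8% (neither). Members were then not above all of those sets. At E18.5, 6447 of the 34825 members held it, and the share of all bins was 14%. In GV oocytes it was 48.3% of members and 36.5% of all bins, and members were above all bins on 19 of 19 autosomes. They did not stand above double-marked bins in general, which had 49.2%. The H3K36me3-only, both-mark and neither fates had 43.7%, 50.4% and 81.6%, and members were higher than both-mark bins on 6 autosomes and lower on 12.

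The covered length gave the same order of stages. Per member bin, H3K4me3 peaks took up a mean of 1.69 kb in c13. In c34 the mean was 0.918 kb, at E18.5 it was 0.724 kb, and in GV oocytes it was 3.8 kb. In GV oocytes 27.3% of member bins were covered along their whole length, against 6.9% in c13 and 1.56% in c34. All autosomal bins held a mean of 1.02 kb, 1.03 kb, 0.535 kb and 2.49 kb at these stages. Bins that kept both marks in c34 also held less in c34 than in c13 (1.63 against 2.81 kb), so a lower length in c34 was not particular to the members, and bins that became H3K36me3 only held 2.59 against 2.8 kb.

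By stage pattern, 12933 members (37.1%) had H3K4me3 at none of the 4 stages and 6717 (19.3%) had it in GV oocytes alone. Another 2682 (7.7%) had it in c34 and GV only, and 2437 (7.0%) had it at all 4 stages. The patterns were counted for members only. Whether they differ from those of all bins or of the other fates was not tested. H3K4me3 in c34 went with a different GV state. Among the 3148 members with H3K4me3 in c34 and not in c13, GV H3K27me3 covered 34.3% and GV H3K4me3 89.6%. Among the 7020 with H3K4me3 in c13 and not in c34, GV H3K27me3 covered 79.9% and GV H3K4me3 43.8%. The 20341 members with H3K4me3 at neither stage had 74.5% and 34.3%, and the 4316 with it at both had 51.3% and 91.3%.

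The GV states of the members differed in the same way when read from the GV side. The 8538 members with neither H3K27me3 nor H3K36me3 in GV oocytes held GV H3K4me3 in 90.9% of bins, at a mean of 8.04 kb of a 10 kb bin. The 21722 with H3K27me3 only held it in 30.6%, at a mean of 2.19 kb, and the 2220 with H3K36me3 only in 66.4%. In c34, 39.7% of the members that ended with neither mark held H3K4me3, against 13.5% of those that ended with H3K27me3 only. In c13 the 2 groups had 32.9% and 32.3%. The c34 order was not particular to the members, since over all autosomal bins it was 21.4% against 9.4%. The other fates had 73.1% against 34.7% (H3K36me3 only in c34), 56.6% against 30.5% (both marks) and 58.7% against 23.8% (neither). Over all autosomal bins with neither mark in GV oocytes, GV H3K4me3 was present in 50.3%. The members' 90.9% was shared by the other double-marked fates with neither mark in GV oocytes, which had 88.2% (H3K36me3 only in c34), 91.3% (both marks) and 89.0% (neither).

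The members lay in long runs, and their GV state followed the position in the run. The 34825 bins formed 2668 runs with a median length of 80 kb (quartiles 40 and 160 kb) and a maximum of 1340 kb. The 1132 runs of 100 kb or more held 78.1% of the bins. Of the bins that flanked a run, 80.3% carried both marks in c13, and in c34 44.0% carried both marks, 28.6% neither, 15.9% H3K36me3 only and 11.4% H3K27me3 only. GV H3K27me3 covered 29.8% of members in runs of 10 to 20 kb, 44.6% in runs of 30 to 90 kb, 69.3% in runs of 100 to 290 kb and 83.9% in longer runs. GV H3K4me3 went the other way, from 77.0% in the shortest class through 74.2% and 51.4% to 29.2% in the longest. Of the runs of 100 kb or more, 346 were covered by GV H3K27me3 throughout, 128 had none and 658 were mixed.

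Distance to the nearest c34 H3K36me3 bin gave a similar gradient. The median distance was 70 kb. Of the 3199 members next to such a bin, 49.3% had GV H3K27me3, 24.4% GV H3K36me3 and 76.0% GV H3K4me3. Of the 12865 members at 100 kb or more, 82.4% had GV H3K27me3, 11.1% GV H3K36me3 and 27.5% GV H3K4me3. At E18.5, H3K27me3 covered 59.1% of the nearest members and 75.1% of the farthest, a smaller span than in GV oocytes, while c7 H3K27me3 covered 65.9% and 66.6%. The c13 and c34 H3K4me3 shares were also lower far from H3K36me3, at 23.7% against 48.6% and 11.6% against 47.8%. The classes of length and distance were chosen with the values known and describe the members only.

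**Figure D3:**
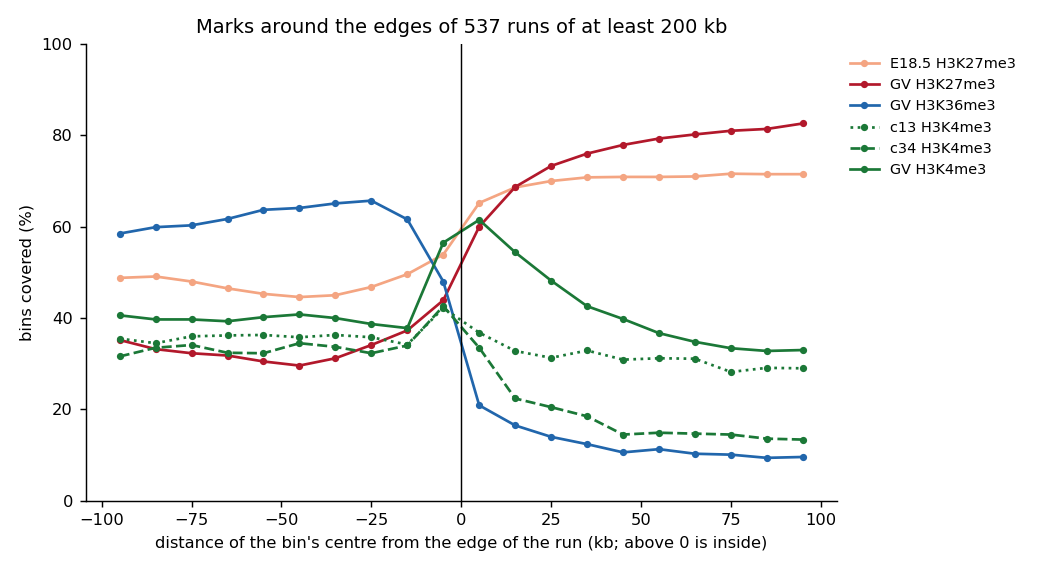
Share of bins covered (y axis, %) against the distance of the bin's centre from the edge of 537 runs of at least 200 kb, both edges pooled, with positive distances inside the run. GV H3K27me3 is at 43.9% in the first bin outside, 60% in the first bin inside and 82.6% at 95 kb inside, GV H3K36me3 goes from 48.0% to 20.9% across the edge, and GV H3K4me3 is highest in the first bin inside (61.5%).

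Of the 5 longest runs, 4 are described with their genes. The longest, chr11:80780001-82120000, held Asic2, an acid-sensing ion channel gene, and the chemokine genes Ccl2, Ccl7, Ccl8, Ccl11 and Ccl12. All of its 134 bins had H3K27me3 in c7 and at E18.5, 127 had it in GV oocytes and none had H3K36me3 at E18.5 or in GV oocytes. The run at chr16:92460001-93580000 (112 bins) held Runx1, a haematopoietic transcription factor, with Clic6 and Rcan1. It had GV H3K27me3 in 111 bins, and its H3K4me3 went from 63 bins in c13 to 11 in c34 and 11 in GV oocytes. The run at chr7:95820001-96950000 (113 bins) held Tenm4, a teneurin of neuronal wiring, and was mixed in GV oocytes, with H3K27me3 in 98 bins, H3K36me3 in 46 and H3K4me3 in 56. The run at chr11:99240001-100370000 (113 bins) held 69 genes, most of them keratin and keratin-associated genes, and had H3K27me3 in 112 bins at E18.5 and 84 in GV oocytes.

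The share of gene bodies in the members lay between those of the other fates. Protein-coding bodies took up 34.1% of member length (21.4% to 39.8% over the autosomes), against 40% of all autosomal bins, 65.2% of the bins that became H3K36me3 only and 55.4% of those that kept both marks. It was lower, 22.7%, in double-marked bins with neither mark in c34, and other c34 H3K27me3-only bins had 32.3% to 35.6% depending on their c13 state. A protein-coding start lay in 7.19% of member bins and 6.63% of all bins. Members outside protein-coding genes had GV H3K27me3 in 65.3% of 20602 bins, and members in bodies away from a start in 75.8% of 11720. Of noncoding genes, 27% of 12408 lncRNA genes and 29.7% of 391 tRNA genes had their midpoint in a member bin, while 11.0% of miRNA genes did. Clustered genes such as tRNA genes share bins and are not separate observations.

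There were 2780 member genes, defined as protein-coding genes with at least 50% of the body in member bins, or 13.5% of the 20665 on autosomes. Of these, 2129 lay wholly in member bins, and a further 875 genes touched member bins below the threshold. Just inside it were Kctd1 (50%), Lama1 (50.1%) and Clrn3 (50.3%), and just outside Ltbp2 (49.9%), Crybg1 (49.8%) and Cd34 (49.8%). In GV oocytes 1808 member genes (65.0%) had H3K27me3 only on at least 50% of the body, 595 (21.4%) neither mark, 231 (8.31%) both and 146 (5.25%) H3K36me3 only. Of the 6732 other genes with both marks over the body in c13, 72.1% had H3K36me3 only in GV oocytes and 5.99% had H3K27me3 only. At E18.5, 1529 member genes (55.0%) had H3K27me3 only.

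H3K4me3 within 1 kb of a start was scored for the 2091 member genes whose start was in the RefSeq promoter table. Taking c13, c34, E18.5 and GV in order, it was present for 64.8%, 42.4%, 44.7% and 63.7%. Over the 16457 protein-coding genes with a start it was present for 71.3%, 65.8%, 61.5% and 72.6%. The members thus had the largest gap to all genes in c34, where the other double-marked genes had 83%. By pattern, 612 member genes had H3K4me3 at all 4 stages, 422 at none and 232 in GV oocytes alone. The patterns were not counted over all genes, so they describe the member genes only.

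CG content split the member promoters. The 2414 promoters in member bins, taking the outermost start of each gene, had a median of 9 CG in 300 bases, against 18 in the other c13 double-marked bins and 14 over all promoters. With 15 or more CG, as in Wnt4 and Kcnmb4 above, H3K4me3 marked 99.0% of 972 member promoters in c13 and 78.2% in c34, and then 84.9% and 83.2% at the in vivo stages. All promoters of that class had 99.4%, 94.2%, 94.5% and 94.0%. With 0 to 4 CG, as in Clec4f and Defb22, it marked 26.3% of 708 member promoters in c13 and 12.9% in c34, and then 11.2% and 45.5% at the in vivo stages. The shares of all promoters of that class were 16.9%, 16.3%, 8.39% and 33.4%. GV H3K27me3 covered member promoters at nearly the same share in the poorest and richest classes, 68.8% and 67.3%. In 4 short motifs searched on both strands, members were near all promoters: TATAAA was in 13.6% and 13.5%, TAATTG in 6.13% and 7.07%, CANNTG in 70.8% and 68.4%, and CCAAT in 34.8% and 39.1%. Matches of CANNTG and CCAAT can share bases, and a match is a description of the letters only.

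**Figure D4:**
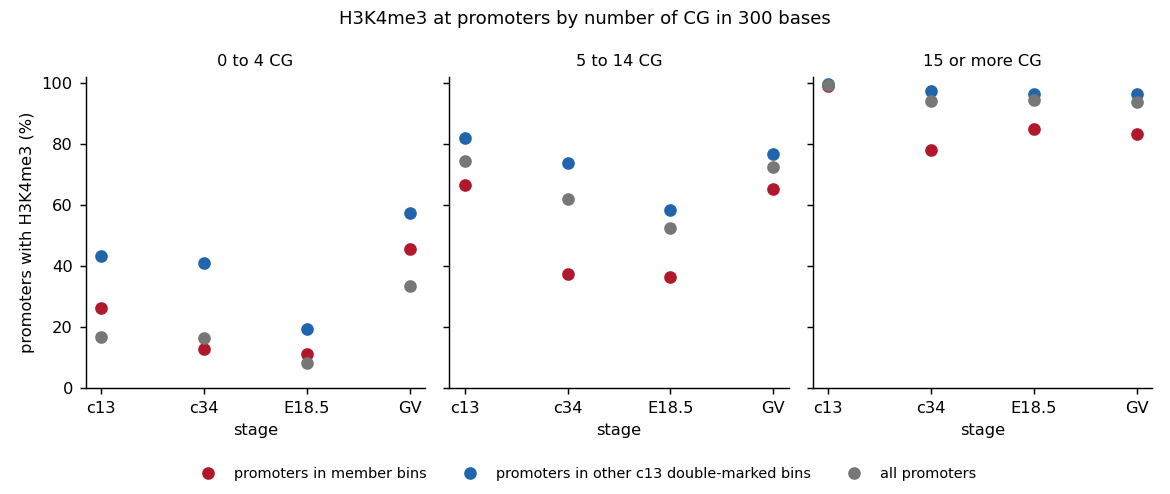
Promoters with H3K4me3 within 1 kb of the start (y axis, %) at c13, c34, E18.5 and GV, in 3 classes of CG number per 300 bases, for promoters in member bins (red), in other c13 double-marked bins (blue) and all promoters (grey). In the CG-rich class the member points are at 99.0% in c13 and 78.2% in c34, and in the CG-poor class they are highest in GV oocytes (45.5%).

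Among the gene lists, keratins, developmental regulators and Hox genes held the largest shares of member genes. The lists of oocyte factors and housekeeping genes held none. These shares were taken over all genes of a list, whatever their c13 state. The median share of the body in member bins was 0 over all genes. It was 100% for the keratin list and 51.4% for developmental regulators. The lists were chosen with earlier results known, and neighbouring genes of a family share runs, so the counts describe loci more than independent genes.

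Of 44 developmental regulators, 22 were member genes, and in GV oocytes 14 of these had H3K27me3 only and 8 neither mark. At E18.5, 16 had H3K27me3 only. Pax7, a muscle and neural crest factor, was wholly covered by H3K27me3 at c7, E18.5 and GV. Its H3K4me3 over the body and 5 kb on each side came to 19.5 kb in c13 and 7.0 kb at E18.5, with 0 in c34 and in GV. Otx2, a forebrain factor, was likewise covered by H3K27me3 in GV oocytes, with 16.9 kb of H3K4me3 in c13 and 0 in c34 and GV. Gata6, the endoderm factor, was different: it had H3K27me3 in c7, H3K36me3 alone at E18.5 and neither mark in GV oocytes, where H3K4me3 covered 43.1 kb. Eomes, a factor of mesendoderm and trophoblast, held 12.9, 14.1, 15.1 and 17.9 kb of H3K4me3 at c13, c34, E18.5 and GV, and its GV H3K27me3 covered 22.8% of the body.

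Of the 39 Hox genes, which set position along the body axis, 19 were member genes, and they were the 10 Hoxb genes of chromosome 11 and the 9 Hoxc genes of chromosome 15. All 19 had H3K27me3 only at E18.5, and in GV oocytes 17 had H3K27me3 only and 2 neither mark. The 11 Hox genes on chromosome 6 and the 9 on chromosome 2 were not members. Only the 19 member Hox genes had both marks over the body in c13, so the others could not be members. The Hoxc genes kept H3K4me3 beside H3K27me3: the median over the body and 5 kb on each side was 15.1, 7.0, 12.2 and 13.4 kb at c13, c34, E18.5 and GV. For the Hoxb genes the medians were 14, 10.4, 10.1 and 13.5 kb in the same order. Of 21 gamma protocadherin genes on chromosome 18, whose bodies overlap each other, 18 were members and all 18 had H3K27me3 only in GV oocytes.

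Of 109 keratin and keratin-associated genes, the structural proteins of epithelia and hair, 76 were members. They were 49 of 50 on chromosome 11, 22 of 26 on chromosome 15, 3 of 3 on chromosome 10 and 2 of 24 on chromosome 16. All 76 had H3K27me3 only at E18.5, and 56 had it in GV oocytes. The 2 large clusters differed in H3K4me3. On chromosome 15 all 22 member keratins held H3K4me3 near the body in c13, at a median of 16.3 kb, 9 did in c34 and 17 in GV oocytes. On chromosome 11, 15 of 49 did in c13, 5 in c34 and 7 in GV oocytes. Krt10 (chromosome 11) and Krt72 (chromosome 15) had no GV H3K27me3 and held 18.2 and 12.3 kb of GV H3K4me3.

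**Figure D5:**
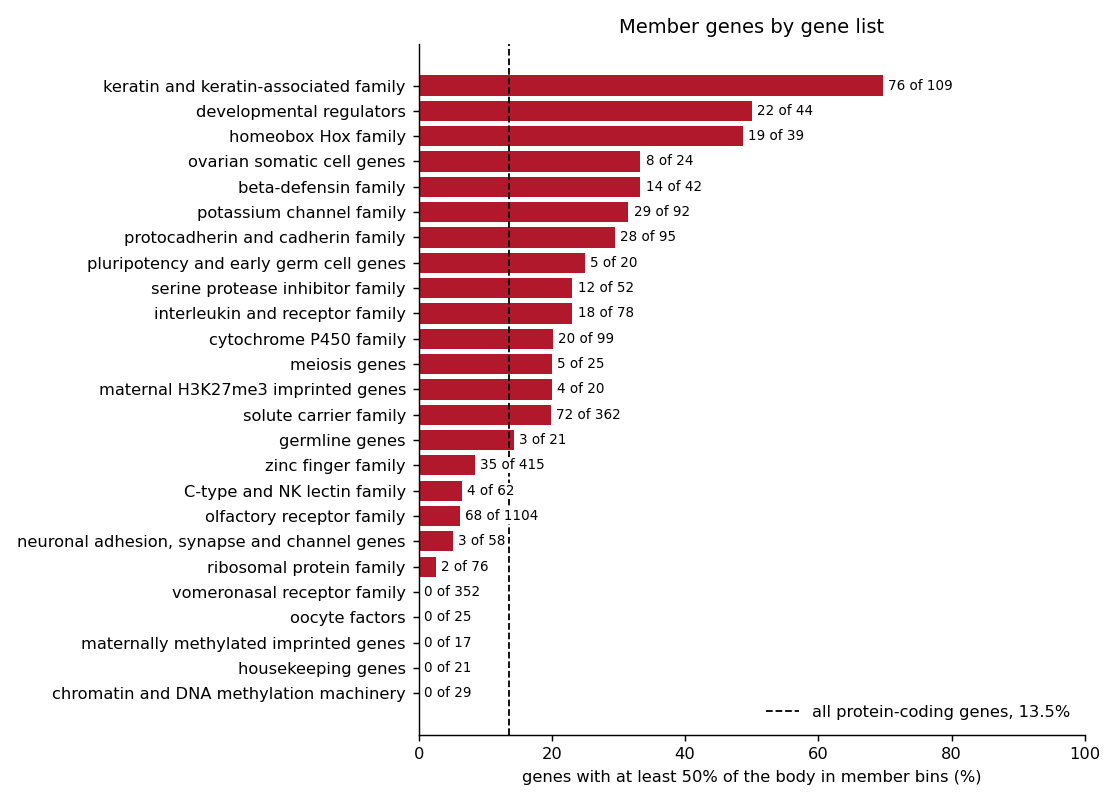
Share of each list's genes that were member genes (x axis, %), with counts beside the bars and a dashed line at the 13.5% of all protein-coding genes. Keratin genes (76 of 109), developmental regulators (22 of 44) and Hox genes (19 of 39) stand highest, and 5 lists hold no member gene.

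Oocyte factors and housekeeping genes were missing from the members. None of 25 oocyte factors, 21 housekeeping genes, 29 genes of the chromatin and DNA methylation machinery and 17 maternally methylated imprinted genes was a member gene. Of all genes, 13.5% were. Only genes with both marks over the body in c13 could be members, which left 13, 8, 12 and 6 genes of these lists. Of all such genes 29.2% were members, so the absence says little for the smaller lists. Of the oocyte factors, 18 of 18 with a start in the table had H3K4me3 there at c34 and at GV, but 12 of them at c13 and 11 at E18.5. The starts without it in c13 included Nlrp5, Padi6, Oosp1 and H1f8. In c34, 21 of the 25 oocyte factors had H3K36me3 only over the body. Of 16 scored starts of ovarian somatic genes, 12 were marked at c13, 10 at c34, 7 at E18.5 and 12 at GV. All protein-coding starts had 71.3%, 65.8%, 61.5% and 72.6% at these stages. The somatic starts were thus near all starts at c13, c34 and GV and below them at E18.5, in a small list. Of the 24 somatic genes, 5 in c34 and 10 in GV had H3K36me3 only over the body. Housekeeping starts were marked in 15 of 15 at each of the 4 stages. Of 76 ribosomal protein genes, 2 were members, Rpl19 and Rps3, both with H3K4me3 at the start at all 4 stages.

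Members made up 20.0% of the meiosis list, 14.3% of the germline list and 25% of the list of pluripotency and early germ cells. All genes had 13.5%, and each of these shares came from 5 genes or fewer. Among genes with both marks over the body in c13, members were 5 of 17 (29.4%), 3 of 16 (18.8%) and 5 of 10. Of all such genes, 29.2% were members. Of 25 meiosis genes, 5 were members: Mei1, Stra8, Spo11, Syce1 and Tex12. Stra8, the retinoic acid target that marks entry into meiosis, had no H3K27me3 in c7 or at E18.5 and was wholly covered by it in GV oocytes, with 29.2 kb of H3K4me3. Spo11, which makes the meiotic DNA breaks, had no H3K27me3 in c7 or at E18.5 either and was wholly covered in GV oocytes. Tex12, a synaptonemal complex gene, lies inside the span of Il18 and had H3K36me3 alone in GV oocytes. Dazl, Piwil4 and Tex101 were the 3 member genes of 21 germline genes, and all had H3K27me3 only in GV oocytes and neither mark at E18.5. Dazl, a germ cell RNA-binding protein gene, had H3K4me3 at the start at all 4 stages. The list of 20 genes of pluripotency and early germ cells gave 5 members (Esrrb, Prdm14, Tdgf1, Fgf4 and Utf1). The 4 with a scored start (all but Prdm14) had H3K4me3 there in c13 and none did in c34. Fgf4 held 13.9 kb near the body in c13 and 0 in c34, with 11.6 and 2.0 kb in the E18.5 and GV lists. Tdgf1 held 6.16 kb in c13 and 0 in c34, and Utf1 11.3 and 0.112 kb. Near the bodies of the others the length was not lost: Esrrb held 38.0 kb in c13 and 35.0 kb in c34, and Prdm14 14.2 and 16.6 kb.

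Of 24 ovarian somatic genes, 8 were members: Fshr, Cyp19a1, Lhcgr, Cyp11a1, Wnt4, Fst, Krt19 and Foxl2. In GV oocytes 5 had H3K27me3 only and 2, Wnt4 and Foxl2, had both marks. Foxl2, the granulosa cell factor, was wholly covered by both and held 12.5 kb of H3K4me3. Cyp11a1, the first enzyme of steroid synthesis, had H3K36me3 over 93.2% of the body in GV oocytes and no H3K27me3. Fshr, the follicle-stimulating hormone receptor, was wholly covered by H3K27me3 at both in vivo stages and held no H3K4me3 in c34 or GV. Of 20 genes known for maternal H3K27me3 imprinting, 4 (20.0%) were members: Runx1, Flt1, Enc1 and Otx2. The share was 13.5% of all genes. Among genes with both marks over the body in c13, it was 4 of 11 (36.4%), against 29.2% of all such genes. With so few genes, these shares show no link between the members and this list. All 4 had H3K27me3 on over 50% of the body in GV oocytes, and Flt1, a VEGF receptor gene, also had H3K36me3 over 96.1% of it. Most member genes had the mark there, 65.0% with H3K27me3 only and 8.31% with both marks. Near the body of Runx1, H3K4me3 spanned 176 kb in c13 and 5.0 kb in c34. It spanned 21.0 kb at E18.5, and in GV oocytes none was listed over the body and 5 kb on each side.

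In the other families, member genes differed in H3K4me3. The 12 member serpin genes of 52 had H3K27me3 only at both in vivo stages, and of the 10 with a scored start 1 had H3K4me3 in c13 and none at the other stages. Beta-defensin genes contributed 14 of 42, and of the 13 with a scored start 10 had H3K4me3 in GV oocytes against 2 in c13 and none in c34. Potassium channel genes contributed 29 of 92, cytochrome P450 genes 20 of 99, interleukin and receptor genes 18 of 78, solute carriers 72 of 362 and cadherins and protocadherins 28 of 95. Below the 13.5% of all genes were zinc finger genes (35 of 415), lectins (4 of 62) and olfactory receptors (68 of 1104). Also below it were neuronal adhesion, synapse and channel genes (3 of 58) and vomeronasal receptors (0 of 352). By the rule, only genes with both marks over the body in c13 could be members. Of such genes, members were 35 of 151 zinc finger genes, 4 of 11 lectins, 68 of 111 olfactory receptors and 3 of 3 neuronal genes. They were also 29 of 67 potassium channel, 20 of 37 cytochrome P450 and 18 of 46 interleukin and receptor genes. For cadherins and protocadherins it was 28 of 40, for serpins 12 of 20 and for beta-defensins 14 of 17. Of all 9512 such genes, 29.2% were members, and solute carriers, with 72 of 221 (32.6%), were near that share. Only 2 vomeronasal receptor genes had both marks over the body in c13.

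The genes with much member length differed in their GV state. Asic2 (1090 kb) and Clstn2 (589 kb), a synaptic adhesion gene, lay wholly in members and had GV H3K27me3 over 96.3% and 100% of the body, with no GV H3K36me3. Sox5 (954 kb), a factor of cartilage and neurons, had no H3K27me3 in c7, 42.2% at E18.5 and 93.7% in GV oocytes. Rgs6, a regulator of G protein signalling, had none in c7 and at E18.5 and 92.7% in GV oocytes. Among the exceptions, Aff3 (455 kb), a nuclear factor of lymphoid cells, was wholly covered by H3K36me3 in GV oocytes with H3K27me3 over 3.21%, and Myo16 (481 kb), an unconventional myosin, had H3K36me3 over all of the body and no H3K27me3. Prkce, a protein kinase C gene, had H3K27me3 over 99.5% and H3K36me3 over 100%. Sorcs3, a neuronal sorting receptor, ended with little of either (18.3% and 35.9%) and held 388 kb of GV H3K4me3. It had held 33.0 kb in c13 and 87.5 kb in c34, with 27 kb in E18.5 oocytes. Slc14a2, a urea transporter gene, held 342 kb in GV oocytes and 18 kb in c13.

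Most members lay in very wide c13 peaks. Of the member bins, 87.1% lay in c13 H3K36me3 peaks of 1 Mb or more, as did 88.0% of the other double-marked bins and 80.6% of that list as a whole. Without c13 peaks of that width in either list, 3852 bins and 255 genes met the rule. GV H3K27me3 covered 54.8% of those bins, GV H3K36me3 12.4% and E18.5 H3K36me3 42.3%. The part that peak width plays in the c13 double mark was not tested. The lists do not show whether both marks sat on the same chromosomes or cells, since each mark was measured in its own libraries of many cells.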

How the data were processed

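H3K27me3, H3K36me3 and H3K4me3 were measured by CATCH-seq in 5 stages. The deposited files are peak lists of chromosome, start and end with no height or p-value. Per the submitters' processing notes, the tools included Trim Galore 0.4.1, Bowtie2 2.3.4.1, Picard 2.18.23, SICER 0.0.41 and MACS2 2.1.1, with the mm10 (GRCm38.p3) build. Which caller and threshold gave each list, and whether libraries were pooled, was not given in the sources used here. H3K27me3 and H3K36me3 peaks lay on a 10 kb grid, so each bin was wholly covered or empty, and H3K4me3 peaks lay on a 1 kb grid.

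Bins, shares, runs and gene overlaps were computed with Python 3.11.15, numpy 2.4.6 and pandas 2.3.3, checked on simulated lists. A bin counted as covered from 50% of its length, or from 1 kb of H3K4me3. Genes and promoters are RefSeq's on GRCm38.p6, whose chromosome coordinates are those of mm10. A start was in the promoter table for 16457 of 20665 autosomal protein-coding genes. Starts were scored for H3K4me3 within 1 kb. Sex chromosomes were not used. Of the 5 longest runs, 1 is not reported here.

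The members and lists were chosen with earlier results of these data known. Named genes were list genes with at least 50% of the body in members (up to 10 per list, by member length), the 15 genes with the most member length, genes of the 5 longest runs, the 5 longest member genes of each other GV state, and the 5 with the most H3K4me3 in c34 and in GV. With 1 list per stage and mark there was no test. Alternatives were other coverage limits, wide c13 peaks, neighbours of c34 H3K36me3, short runs, each autosome left out, H3K4me3 length, body share and the bins counted as background.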

Additional observations from a re-analysis of the deposited data

How the results depend on the processing

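No paired analysis was possible because each stage and mark has 1 list and no result comes from a test. Other coverage limits changed nothing, since each bin is wholly covered or empty. Runs of 3 or more bins kept 34503 bins and 2747 genes. GV H3K27me3 then covered 69.5% and GV H3K4me3 lay in 48.0%, against 69.1% and 48.3% with all runs. Without c13 peaks of 1 Mb or more, 3852 bins and 255 genes were members, with H3K27me3 over 59.1% in c7, 59.7% at E18.5 and 54.8% in GV, H3K36me3 over 42.3% at E18.5 and 12.4% in GV, H3K4me3 in 21.1% (c13), 20.9% (c34), 14.4% (E18.5) and 54.4% (GV), and gene bodies over 32.1% of length. The c13 and c34 H3K4me3 shares were then nearly equal, E18.5 H3K36me3 stood above its background of 23.8%, and GV H3K27me3 was below the other c34 H3K27me3-only sets. Fewer bins meet the rule then by construction, and why their shares differ was not tested. Away from c34 H3K36me3 in a neighbouring bin, H3K27me3 covered 68.8% at E18.5 and 71.1% in GV, GV H3K36me3 12%, and H3K4me3 30.9% (c13), 18.8% (c34), 17.3% (E18.5) and 45.5% (GV). With at least 5 kb of H3K4me3 per bin, the shares were 16.5%, 8.69%, 6.49% and 39.5%, lower by construction. Leaving out each autosome gave 31619 to 33666 bins, 2372 to 2710 genes, H3K27me3 of 65.8% to 68.0% in c7, 66.9% to 69.0% at E18.5 and 68.3% to 70.1% in GV, H3K36me3 of 16.7% to 21.3% at E18.5 and 12.8% to 13.6% in GV, H3K4me3 of 32.0% to 33.1% in c13, 21.0% to 21.8% in c34, 18.2% to 18.8% at E18.5 and 47.3% to 49.0% in GV, and gene bodies over 33.6% to 34.8%. Any overlap with the body gave 3655 genes and the whole body 2129. Over the 220805 bins covered by at least 1 list, the background of GV H3K27me3 was 31.6% and of GV H3K36me3 42.9%. Read depth was unknown, so bins outside a list may lack the mark or lack reads.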
